A study of Mus musculus with 3 samples.

Results

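The genes described here are those for the pore-forming and auxiliary subunits of voltage-gated sodium and calcium channels, followed in 3 libraries of mouse brain RNA. They were taken by symbol, as every counted gene named Cacna1, Cacna2d, Cacnb, Cacng or Scn with a number and the letter a or b, which gave 38 of the 17992 counted genes. One group received AGNHW (Angong Niuhuang Wan, a remedy of Chinese medicine) at a daily dose of 3 mg per g. The vehicle group is the stroke model, with the middle cerebral artery occluded, and the sham group is its control. All mice were wild-type adults of the C57BL/6 strain, and the occlusion is named in the labels beside the vehicle group and not repeated beside AGNHW. There was 1 library a group, so differences could not be set against a spread between animals; "higher" and "lower" speak of the libraries themselves. The sources used here do not give the brain region, the time after occlusion or how many mice a library pooled.

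Voltage-gated sodium channels open within a fraction of a millisecond when the membrane depolarises and drive the upstroke of the action potential. Their large alpha subunit forms the pore, and small single-pass beta subunits tune its gating and its place in the membrane. Voltage-gated calcium channels turn depolarisation into calcium entry, which releases transmitter, shapes burst firing and signals to the nucleus; an alpha1 subunit forms the pore, and alpha2delta and beta subunits carry it to the surface. Most gamma subunits of the Cacng group are better known in brain as TARPs, which escort AMPA-type glutamate receptors to the synapse.

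The libraries held 18184691 (AGNHW), 15718594 (vehicle) and 18286151 (sham) counts, and the channel genes took 0.463%, 0.435% and 0.468% of them in that order. Levels are CPM, counts scaled to a common library total by edgeR's TMM method, a trimmed mean of log ratios. A gene passed the size rule when 2 libraries differed at least 1.5-fold, its mean was at least 1 CPM and the 95% interval of the ratio, which covers counting error only, excluded 1. In these bulk samples, fewer cells of a type and less RNA per cell cannot be told apart. The 6 neuron markers, among them Snap25 and Rbfox3, summed to 4120 CPM with AGNHW, 4107 CPM in vehicle and 4616 CPM in sham, and 1 of them, Map2, passed the size rule as lower in vehicle than in sham. The 6 pituitary markers summed to 3.45 CPM with AGNHW, 3744 CPM in vehicle and 3.99 CPM in sham, and the 3 counted markers of brainstem neurons to 2.46, 14.7 and 1.06 CPM in that order, so the vehicle library stood apart in these markers. The 3 red blood cell markers summed to 37.4, 101 and 29.1 CPM and the 3 of choroid plexus to 627, 935 and 517 CPM, while the 4 of microglia summed to 125, 107 and 154 CPM. Between vehicle and sham, 3 red blood cell and 2 choroid plexus markers were higher and 2 microglia markers lower. With AGNHW Cga, and in sham Gh, Prl and Ghrhr, were at 0 counts. The part of this in the channel results was not tested.

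Of the 38 channel genes, 36 reached the mean of 1 CPM. Between AGNHW and vehicle 0 of the 36 passed the size rule, against 6.57% of all 15558 genes compared (4.01% higher and 2.56% lower). Between AGNHW and sham, 1 was higher (Scn10a) and 3 were lower (Scn3a, Cacna2d1 and Cacng6), together 11.1%, against 8.79% of all genes (3.32% higher and 5.47% lower). Between vehicle and sham, 1 was higher (Scn10a) and 6 were lower (Scn1a, Scn2a, Scn3a, Cacna2d1, Cacnb4 and Cacng6), together 19.4%, against 22.8% of all genes (8.66% higher and 14.2% lower). In both comparisons with sham, which share that library, the share of channel genes past the rule thus lay near that of all genes. The median log2 ratio of the channel genes was 0.10 for AGNHW against vehicle, -0.05 for AGNHW against sham and -0.15 for vehicle against sham. The medians of all genes compared were 0.0020, -0.00066 and 0.012 in that order.

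**Figure D1:**
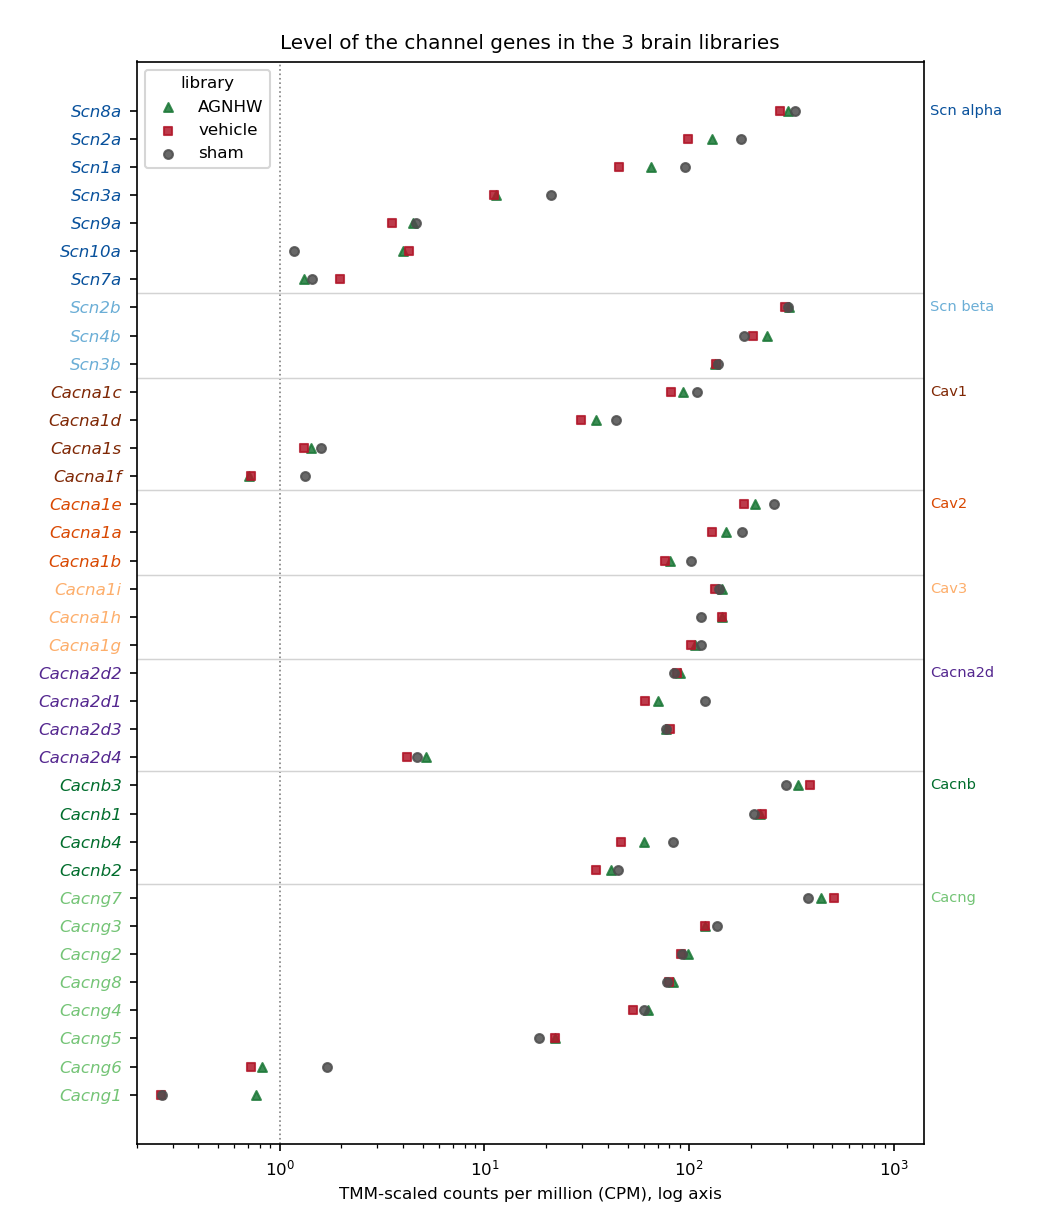
Level of 36 of the 38 channel genes in CPM on a log axis, with a triangle for AGNHW, a square for vehicle and a circle for sham; the dotted line marks 1 CPM and label colours mark the subunit class. Scn1a, Scn2a, Cacna2d1 and Cacnb4 are highest in sham and lowest in vehicle, while the sham point of Scn10a lies far to the left of the other two.

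Sodium channel alpha genes made up 4 of the 7 channel genes past the size rule between vehicle and sham. Of the 8 alpha genes measured, 1 was higher and 3 were lower in vehicle, while 22.8% of all genes passed in either direction. Corrected for length and GC content as described below, 0 alpha genes were lower and 2 were higher. These were Scn10a, with 65 counts in vehicle and 22 in sham, and Scn7a, with 30 and 27. Whether alpha genes differ from other genes in this was not tested. Scn8a, which encodes Nav1.6, the main channel of mature axon initial segments and nodes, was the most abundant, with 5544 counts in AGNHW, 4233 in vehicle and 6208 in sham. Its ratio was 0.844 (0.811 to 0.877) for vehicle against sham and 1.09 (1.05 to 1.14) for AGNHW against vehicle, both inside 1.5-fold. Scn1a, which encodes Nav1.1, the channel of fast-spiking inhibitory neurons whose loss causes Dravet syndrome, had 1182 counts in AGNHW, 692 in vehicle and 1789 in sham. It was 2.09-fold lower in vehicle than in sham (1.91 to 2.28), and its AGNHW level of 64.7 CPM lay between 45.5 CPM in vehicle and 95.1 CPM in sham. The ratio of AGNHW to vehicle, 1.42 (1.29 to 1.56), was the highest of the 36 and stayed short of 1.5-fold.

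Scn2a encodes Nav1.2, the channel of excitatory neurons and unmyelinated axons, and had 2348 counts in AGNHW, 1503 in vehicle and 3381 in sham. It was 1.82-fold lower in vehicle than in sham (1.71 to 1.93), with 1.30 (1.22 to 1.39) for AGNHW against vehicle. Scn3a, which encodes Nav1.3, the channel of the embryonic and newborn brain, had 207 counts in AGNHW, 170 in vehicle and 397 in sham. Sham stood above both other libraries, with Scn3a 1.89-fold lower in vehicle (1.57 to 2.27) and 1.86-fold lower with AGNHW (1.57 to 2.21), while AGNHW and vehicle had 11.3 and 11.2 CPM. In mouse, Scn1a, Scn2a and Scn3a lie in 1 cluster with Scn9a and Scn7a on chromosome 2. The genes of the cluster differed in their ratios: Scn9a, which encodes Nav1.7, had 82, 54 and 87 counts in AGNHW, vehicle and sham, and Scn7a, the salt-sensing Nax channel of glia and ganglia, had 24, 30 and 27, neither past the size rule in any comparison.

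Scn10a was the 1 channel gene past the size rule as higher than in sham. It encodes Nav1.8, a slowly inactivating channel best known from pain-sensing neurons of peripheral ganglia, and had 73 counts in AGNHW, 65 in vehicle and 22 in sham. It was 3.66-fold higher in vehicle than in sham (2.22 to 6.23) and 3.42-fold higher with AGNHW than in sham (2.10 to 5.79), and AGNHW and vehicle differed by a ratio of 0.935 (0.660 to 1.33). Both ratios to sham rest on its 22 counts there. Of the markers of sensory ganglia, Prdm12 had 13 counts in AGNHW, 8 in vehicle and 21 in sham, and Calca 20, 16 and 17. Neither had its sham count below both others. GENCODE also lists Scn4a, of skeletal muscle, and Scn11a, of sensory neurons, which were not among the counted genes.

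Promoter windows of 4 genes past the size rule are shown, 3 lower and 1 higher in vehicle than in sham. In base composition the Cacna2d1 window differs from those of Scn1a, Scn2a and Scn10a. The 4 genes were chosen after their values were seen. Each lies around a transcription start listed by RefSeq (GRCm38.p6) and is written 5′ to 3′ on the gene's strand. Capitals mark the letters TATAAA of the TATA box or GGGCGG of the GC box, on either strand. CCGCCC is the GC box on the opposite strand. A TATA box can position the polymerase, and a GC box can bind Sp1. Matches were taken by letters alone, whatever their distance from the start, and whether they act in these promoters was not tested. GC boxes near the start of Cacna2d1 overlap or touch.
Scn1a, chr2:66440788-66441087, minus strand: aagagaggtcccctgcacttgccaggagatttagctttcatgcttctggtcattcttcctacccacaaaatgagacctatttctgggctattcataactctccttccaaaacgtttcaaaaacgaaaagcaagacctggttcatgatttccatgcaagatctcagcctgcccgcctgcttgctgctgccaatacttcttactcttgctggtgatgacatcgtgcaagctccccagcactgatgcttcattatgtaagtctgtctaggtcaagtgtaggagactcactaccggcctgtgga
Scn2a, downstream of 2 listed starts, chr2:65668436-65668735, plus strand: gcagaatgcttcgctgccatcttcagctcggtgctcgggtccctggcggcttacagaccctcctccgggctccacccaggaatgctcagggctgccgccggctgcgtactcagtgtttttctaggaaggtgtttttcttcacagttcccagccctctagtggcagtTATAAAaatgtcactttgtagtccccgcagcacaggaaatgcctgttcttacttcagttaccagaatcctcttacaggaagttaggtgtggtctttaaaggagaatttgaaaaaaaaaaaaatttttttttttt
Scn10a, chr9:119718983-119719282, minus strand: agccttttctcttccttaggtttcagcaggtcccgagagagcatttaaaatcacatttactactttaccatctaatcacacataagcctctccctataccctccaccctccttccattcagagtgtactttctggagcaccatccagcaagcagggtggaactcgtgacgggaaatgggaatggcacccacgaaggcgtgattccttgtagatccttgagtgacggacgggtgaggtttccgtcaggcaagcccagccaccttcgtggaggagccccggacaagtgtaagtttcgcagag
Cacna2d1, chr5:15934441-15934740, plus strand: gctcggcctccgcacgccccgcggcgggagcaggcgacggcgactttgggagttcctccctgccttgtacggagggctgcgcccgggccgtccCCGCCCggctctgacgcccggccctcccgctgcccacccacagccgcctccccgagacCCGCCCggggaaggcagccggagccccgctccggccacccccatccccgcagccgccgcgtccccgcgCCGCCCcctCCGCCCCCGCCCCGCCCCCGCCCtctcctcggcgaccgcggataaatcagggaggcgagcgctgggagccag

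The Cacna2d1 window held 7 GC boxes and 42 CpG pairs at 80.0% GC, whereas the Scn1a window held no GC box, 5 CpG pairs and 47.3% GC. The Scn2a window held 1 TATA box, 9 CpG pairs and 47.7% GC, and the Scn10a window neither motif, 11 CpG pairs and 51.7% GC. The Scn1a and Scn2a windows shown were thus close in GC content. The upstream Scn2a window, not shown, held none of the motifs searched and 33.0% GC. RefSeq windows were listed for 28 of the 38 genes, 39 windows in all; a GC box was present in 41.0% of them, against 35.7% of all 32851 windows, and a TATA box in 5.13%, against 13.6%. The cAMP response element TGACGTCA was in 0 of the 39 windows, against 1.79% of all, and the E-box CAGGTG in 17.9%, against 20.2%. Of the binding element of REST, a repressor of neuronal genes in other cells, the left stretch CAGCACC was in 0 of the 39 windows, against 7.14% of all, and the right stretch GGACAG in 17.9%, against 22.2%. All motifs were searched on both strands, and a window without a match says nothing of the rest of the gene.

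Of the sodium channel beta genes, 0 of the 4 passed the size rule in any comparison. Scn4b, whose tail gives the resurgent sodium current of rapidly firing cells, had 239, 205 and 185 CPM in AGNHW, vehicle and sham, the AGNHW library being highest, with 1.16 (1.11 to 1.22) against vehicle and 1.29 (1.24 to 1.35) against sham. Scn2b had 307, 294 and 302 CPM and Scn3b 133, 135 and 138 CPM in the same order, with all ratios of these 2 genes between 0.965 and 1.04.

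Of the calcium channel alpha1 genes, 0 of the 9 measured passed the size rule in any comparison. All but Cacna1h had a ratio under 1 for vehicle against sham. The L-type genes, which couple depolarisation to gene expression, were led by Cacna1c (Cav1.2), with 1700 counts in AGNHW, 1235 in vehicle and 2058 in sham. It was 1.35-fold lower in vehicle than in sham (1.25 to 1.45), and Cacna1d (Cav1.3), a pacemaking channel that opens at low voltages, was 1.49-fold lower (1.33 to 1.68), just inside the limit, with 641, 448 and 827 counts. Cacna1s, of skeletal muscle, had 26, 20 and 30 counts, and Cacna1f, of retina, 13, 11 and 25, with a mean of 0.921 CPM that left it out of the comparison.

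The Cav2 genes, which trigger transmitter release, had similar ratios before the correction for transcript length and GC content given below. Cacna1e, which encodes the R-type channel, led them with 3840 counts in AGNHW, 2815 in vehicle and 4901 in sham, 1.41-fold lower in vehicle than in sham (1.34 to 1.47). Cacna1a, the P/Q-type channel of most fast synapses, had 2757, 1959 and 3421 counts and was also 1.41-fold lower (1.33 to 1.49). Cacna1b, the N-type channel, had 1465, 1162 and 1919 counts and was 1.33-fold lower (1.24 to 1.44). The 3 ratios of AGNHW to sham ran from 0.787 to 0.830, and of AGNHW to vehicle from 1.05 to 1.17.

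The T-type (Cav3) genes, whose low-voltage channels drive thalamic and cortical bursts, had ratios to sham unlike those of the Cav2 genes before the correction. Cacna1i, the highest of them by mean CPM over the libraries, had 2624 counts in AGNHW, 2027 in vehicle and 2616 in sham, and ratios of 1.03 (0.979 to 1.09) for AGNHW and 0.959 (0.904 to 1.02) for vehicle against sham. Cacna1h had 2633, 2189 and 2159 counts, above Cacna1i in AGNHW and vehicle and below it in sham, with sham lowest and ratios of 1.26 (1.19 to 1.33) for AGNHW and 1.25 (1.18 to 1.33) for vehicle against sham. Cacna1g had 1942, 1543 and 2141 counts and ratios of 0.935 and 0.892. Within a library there were 95.5 Cacna1h counts per 100 Cacna1a counts with AGNHW (90.5 to 101) and 112 in vehicle (105 to 119). In sham there were 63.1 (59.8 to 66.6). The transcripts of Cacna1h and Cacna1a have 8230 and 7926 bases and 60.0% and 58.4% GC. What lies behind the difference in their counts was not tested.

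Among alpha2delta genes, Cacna2d1 stood apart. The gene, whose protein binds gabapentin, had 1285 counts in AGNHW, 929 in vehicle and 2250 in sham. Sham was highest, with Cacna2d1 1.96-fold lower in vehicle (1.81 to 2.12) and 1.70-fold lower with AGNHW (1.59 to 1.82). Cacna2d2 had 1638, 1324 and 1578 counts and Cacna2d3 1403, 1224 and 1455, with all ratios of these 2 genes between 0.955 and 1.07. Per 100 Cacna2d2 counts there were 78.4 Cacna2d1 counts with AGNHW (72.9 to 84.4) and 70.2 in vehicle (64.5 to 76.4), against 143 in sham (134 to 152). The transcripts of Cacna2d1 and Cacna2d2 differ in length (7436 and 5807 bases) and GC content (40.7% and 55.8%). Corrected for both as described below, their ratios of vehicle to sham were closer, at 0.825 and 1.03. Cacna2d4, mainly of retina, had 95, 64 and 88 counts and passed in no comparison.

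The beta genes, whose cytosolic proteins bind the alpha1 loop, also differed among themselves. Cacnb3 was most abundant, with 6204 counts in AGNHW, 5891 in vehicle and 5603 in sham, and a ratio of 1.30 (1.25 to 1.35) for vehicle against sham. Cacnb4, which is mutated in the ataxic lethargic mouse, had 1097, 703 and 1566 counts and was 1.80-fold lower in vehicle than in sham (1.65 to 1.97), with 1.30 (1.18 to 1.43) for AGNHW against vehicle. Cacnb1 had 222, 227 and 208 CPM in AGNHW, vehicle and sham, and Cacnb2 41.3, 35.2 and 45.0 CPM, neither past the rule.

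Gamma genes included 1 below sham past the size rule, Cacng6, a skeletal muscle subunit with only 15 counts in AGNHW, 11 in vehicle and 32 in sham. It was 2.35-fold lower in vehicle (1.15 to 5.17) and 2.07-fold lower with AGNHW (1.09 to 4.11), wide intervals that begin near 1. The other muscle subunit, Cacng1, had 14, 4 and 5 counts, too few for the comparison. Cacng7, a type II TARP, was the most abundant with 8061 counts in AGNHW, 7719 in vehicle and 7190 in sham, and a ratio of 1.33 (1.29 to 1.37) for vehicle against sham. Cacng2, the stargazin gene that is disrupted in the stargazer mouse, had 98.9, 91.5 and 92.0 CPM, and Cacng8, the main TARP of hippocampus, 83.6, 79.4 and 78.2 CPM, with all ratios of these 2 genes between 0.994 and 1.08. Cacng3, Cacng4 and Cacng5 had ratios between 0.875 and 1.19 in all 3 comparisons. These gamma ratios are uncorrected, and those of vehicle to sham corrected for length and GC content are given below.

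**Figure D2:**
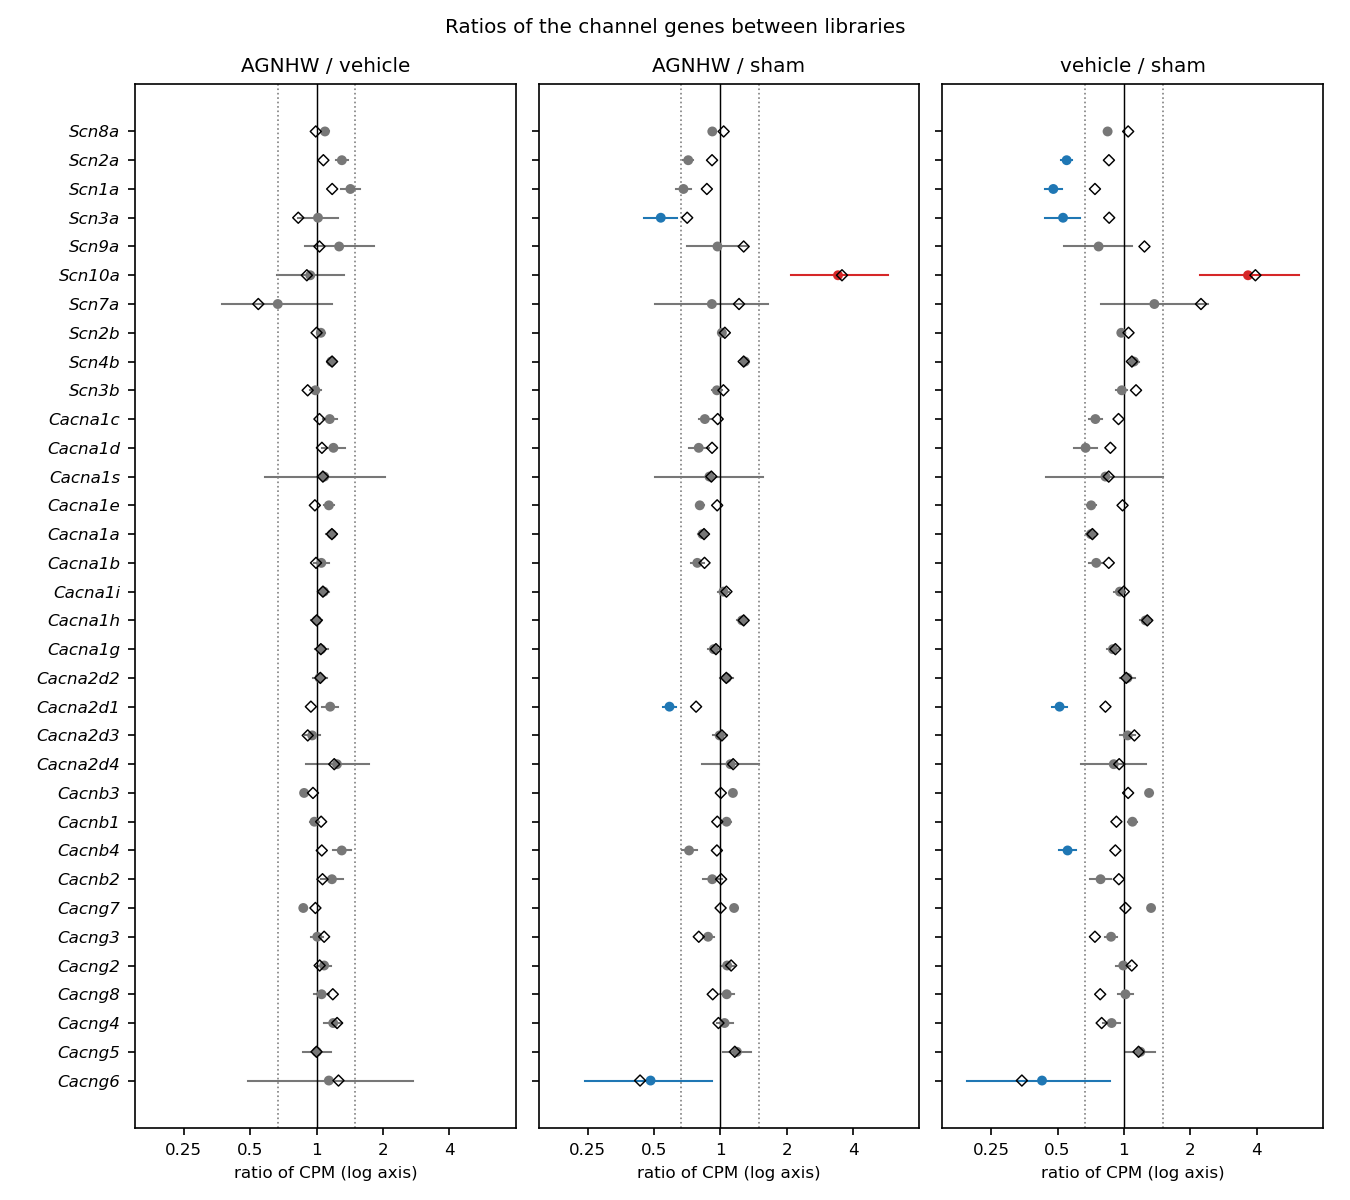
Ratio of CPM on a log axis for 34 of the 36 measured channel genes in 3 comparisons (filled point, with a bar for the 95% counting interval), red where past the size rule as higher and blue where lower; dotted lines mark 1.5-fold, and open diamonds give the ratio after correction for transcript length and GC content. The blue points of Scn1a, Scn2a, Scn3a, Cacna2d1 and Cacnb4 have diamonds inside the dotted lines, while against sham the diamonds of Scn10a and Cacng6 stay outside; the grey point of Scn7a has its diamond outside in the AGNHW to vehicle and the vehicle to sham panels.

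Channel transcripts are long, with a median of 6472 bases over the 36 genes, against 3070 bases over the 15234 compared genes with a length, and in these libraries the ratio followed length and GC content over all genes. Between vehicle and sham, the median log2 ratio of all genes of at least 10 CPM was 0.47 in the shortest of 10 equal bins of length and -0.44 in the longest, and for AGNHW against vehicle it was -0.25 and 0.19. A smooth trend on length and GC content took up 49.9% of the variance between vehicle and sham, 40.2% between AGNHW and sham and 28.7% between AGNHW and vehicle. Across the 36 channel genes, which differ in family and abundance, Spearman's rho between the log2 ratio of vehicle to sham and length was -0.477, and with GC content 0.533. The 5 genes Scn1a, Scn2a, Scn3a, Cacna2d1 and Cacnb4 had transcripts of 7436 to 9560 bases and 40.5% to 43.4% GC.

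With this trend subtracted, those 5 calls ended. The corrected ratio of vehicle to sham was 0.739 (0.676 to 0.807) for Scn1a, 0.855 (0.804 to 0.909) for Scn2a, 0.858 (0.712 to 1.03) for Scn3a, 0.825 (0.763 to 0.891) for Cacna2d1 and 0.915 for Cacnb4. Each remained under 1 and inside 1.5-fold. For AGNHW against sham the calls of Scn3a, at 0.708 (0.595 to 0.839), and Cacna2d1, at 0.777 (0.725 to 0.832), ended too. Scn10a kept a corrected ratio of 3.95 (2.40 to 6.73) in vehicle and 3.56 (2.19 to 6.03) with AGNHW against sham, and Cacng6 one of 0.345 (0.157 to 0.702) and 0.433 (0.218 to 0.823).

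Corrected, 0 channel genes were higher and 1 was lower (Scn7a) with AGNHW than in vehicle, 2.78% of the 36, against 4.82% of all 15234 genes (3.24% higher and 1.58% lower). Between AGNHW and sham 1 was higher (Scn10a) and 1 lower (Cacng6), 5.56%, against 5.96% of all genes (2.55% higher and 3.41% lower). Between vehicle and sham 2 were higher (Scn10a and Scn7a) and 1 lower (Cacng6), 8.33%, against 11.1% of all genes (4.04% higher and 7.06% lower). Scn7a had only 24 to 30 counts a library. Cacng7 and Cacnb3, whose transcripts are short, had corrected ratios of 1.02 and 1.05 for vehicle against sham. Other gamma genes moved further from 1, Cacng3 to 0.739 (0.695 to 0.785), Cacng8 to 0.781 (0.723 to 0.843) and Cacng4 to 0.793 (0.723 to 0.869). Cacng2 and Cacng5 had 1.09 and 1.17. Of the 7 measured gamma genes, 4 had a corrected ratio under 1, and their median log2 ratio was -0.33. Cacna1h and Cacna1a kept ratios away from 1, at 1.28 (1.20 to 1.36) and 0.720 (0.680 to 0.761). Of the other Cav2 genes, Cacna1e had a corrected ratio of 0.986 (0.941 to 1.03) and Cacna1b one of 0.854 (0.793 to 0.919). Of the other Cav3 genes, Cacna1i had 0.999 (0.942 to 1.06) and Cacna1g 0.915 (0.856 to 0.977). The corrected ratios of Cav2 and Cav3 genes thus overlapped.

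**Figure D3:**
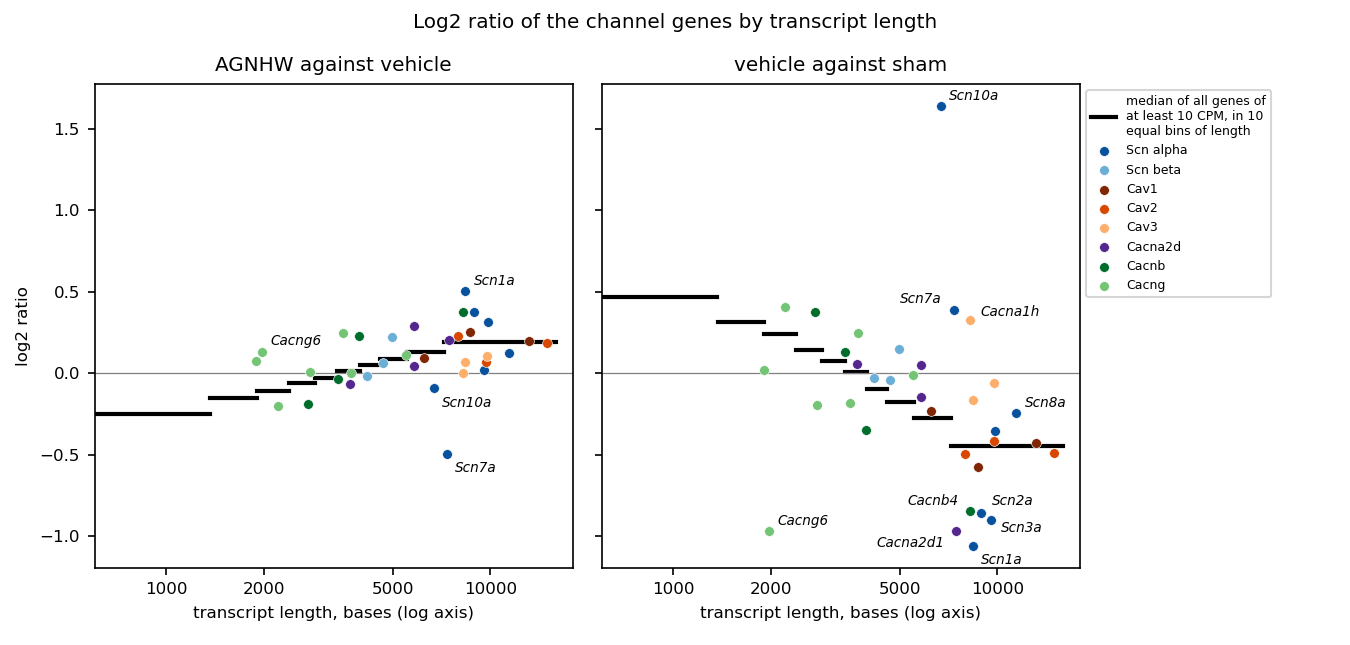
Log2 ratio of 34 of the 36 measured channel genes by transcript length in bases (log axis), for AGNHW against vehicle on the left and vehicle against sham on the right; black bars give the median of all genes of at least 10 CPM in 10 equal bins of length, the longest drawn to the edge of the genes shown. The black steps climb with length on the left and descend on the right; Scn10a lies far above them on the right, and Scn1a, Cacna2d1, Scn3a, Scn2a and Cacnb4 below the longest bin.

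Set per length, as CPM per 1000 bases of transcript, the order was the same in every library for the Cacnb and Scn beta genes and changed in the other 4 families. Scn8a led the alpha genes with 26.5, 24.3 and 28.8 CPM per 1000 bases in AGNHW, vehicle and sham, ahead of Scn2a with 14.4, 11.1 and 20.1 and Scn1a with 7.72, 5.43 and 11.3. Scn10a was the sixth of the 8 in AGNHW and vehicle, at 0.597 and 0.639, and the lowest in sham, at 0.175. Cacna1a led the alpha1 genes with AGNHW (19.0) and in sham (22.9), and Cacna1h in vehicle (17.5, against 16.3 for Cacna1a). Cacna2d2 stood above Cacna2d1 in AGNHW (15.4 and 9.46) and vehicle (15.0 and 8.21) and below it in sham (14.4 and 16.1). Levels per length do not remove the trend of the ratios on length and GC content, and its part in these changes of order was not tested.

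As shares of all alpha counts within a library, Scn8a made up 57.1% with AGNHW (95% exact binomial interval 56.1 to 58.1) and 61.0% in vehicle (59.8 to 62.2), against 51.3% in sham (50.4 to 52.2). Scn2a made up 24.2% (23.3 to 25.0) and 21.7% (20.7 to 22.6), against 27.9% (27.1 to 28.7), and Scn1a 12.2% (11.5 to 12.8) and 9.97% (9.28 to 10.7), against 14.8% (14.1 to 15.4). So the share of Nav1.6 transcripts was highest in vehicle and lowest in sham, with intervals that do not overlap. All shares here are uncorrected for the trend on length and GC content. For vehicle against sham that trend had a log2 of -0.31 for Scn8a, -0.64 for Scn2a and -0.63 for Scn1a. Its part in the shares was not tested. Among alpha1 genes the share of Cacna1h was 14.9% with AGNHW (14.4 to 15.5) and 16.3% in vehicle (15.7 to 17.0), against 10.7% in sham (10.3 to 11.2), and that of Cacna1e 21.8% (21.2 to 22.4) and 21.0% (20.3 to 21.7), against 24.4% (23.8 to 25.0).

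**Figure D4:**
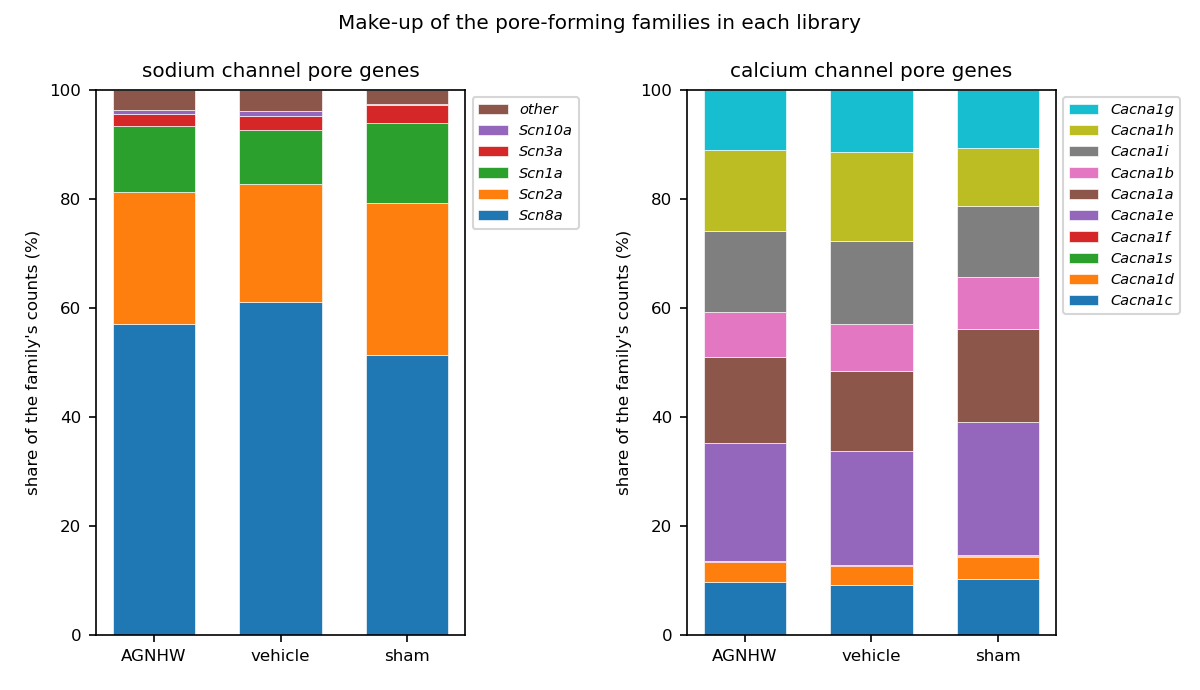
Share of each pore-forming gene in the summed counts of its family in percent, as stacked bars for AGNHW, vehicle and sham, with sodium channel alpha genes on the left (3 of the 8 pooled as other) and calcium channel alpha1 genes on the right. The Scn8a block is 61.0% in vehicle and 51.3% in sham, and the Cacna1h block 16.3% and 10.7%.

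Partners and regulators of the channels, a list of 45 genes of which all were measured, had 1 member higher and 12 lower in vehicle than in sham, 28.9% past the size rule, against 22.8% of all genes. Their median log2 ratio was -0.19. The anchor Ank2 was 1.66-fold lower in vehicle (1.60 to 1.72), the release-site scaffold Rims1 1.84-fold lower (1.73 to 1.96), Nalcn, which encodes a sodium leak channel, 1.71-fold lower (1.55 to 1.89), and Unc80, a subunit of its complex, 1.93-fold lower (1.79 to 2.09). Ank3, which encodes ankyrin-G, the anchor of sodium channels at the initial segment, had 4414 counts in AGNHW, 2837 in vehicle and 5205 in sham and stayed short of the rule at 1.48-fold lower in vehicle (1.42 to 1.55). Corrected for length and GC content, 1 partner was higher (Dlg4) and 2 lower (Rest and Rrad) in vehicle than in sham, 6.67%, against 11.1% of all genes. Rrad had only 34, 23 and 37 counts in AGNHW, vehicle and sham. Its uncorrected ratio of vehicle to sham, 0.769 (0.436 to 1.33), was not past the rule. Rest, the repressor first described on the Scn2a gene, had 40 counts in AGNHW, 18 in vehicle and 68 in sham and was 3.05-fold lower in vehicle than in sham (1.80 to 5.46). Between AGNHW and sham, 4 partners were lower (Rims1, Unc80, Rest and Gem), 8.89%, against 8.79% of all genes past the size rule. Gem had only 10 counts in AGNHW, 16 in vehicle and 33 in sham. Between AGNHW and vehicle 1 was higher, 2.22%, against 6.57% of all genes; it was Rest, with a ratio of 1.85 (1.04 to 3.43). After correction 1 partner was lower with AGNHW than in sham (Gem), and 1 was higher with AGNHW than in vehicle (Stac3), each 2.22%, against 5.96% and 4.82% of all genes. The calls of Rest in these 2 comparisons ended, with a log2 ratio of -0.45 corrected and -0.66 uncorrected for AGNHW against sham, and 0.56 corrected and 0.75 uncorrected for AGNHW against vehicle, where it had 40 and 18 counts.

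With the strand setting of the counting unknown, reads of genes that share exons on opposite strands cannot be told apart. In GENCODE, 5 channel genes share exon sequence with another counted gene on the opposite strand: Cacna1a, Cacna1d, Cacnb1, Cacng2 and Scn9a. The longest shared stretch was 589 bases, between Cacna1d and Chdh, which had 104, 68 and 122 counts in AGNHW, vehicle and sham. The partner of Scn9a, Gm13629, had 73, 66 and 82 counts, close to those of Scn9a itself. For the 7 channel genes past the size rule no counted gene shared exon sequence, but Cacnb4 shares 1170 bases with A430018G15Rik on the opposite strand, which was not among the counted genes.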

How the data were processed

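The deposited values are raw counts, in whole numbers, for 17992 gene symbols in each of 3 libraries. The submitters' processing notes name mm9 as the build, and as tools HTSeq 0.6.0, TopHat2 2.0.12 and Bowtie2 2.2.3; their settings, and the strand used in counting, are unknown. No gene had fewer than 21 counts over the 3 libraries together.

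Counts were scaled with TMM of edgeR 4.0.16 in R 4.3.3; ratios have exact conditional binomial 95% intervals, and log2 ratios a prior count of 5. The size rule was run on all genes and checked on simulated counts. With 1 library per group, no test was made. Lengths and GC content are those of the longest coding transcript of GENCODE M21 (17569 symbols matched, all 38 channel genes among them); the trend was fitted with natural splines of 4 degrees of freedom on 9941 genes of at least 10 CPM. Alternatives included the size factors of DESeq2 1.42.0. Python 3.11.15 with pandas 2.3.3 and scipy 1.17.1 did the rest. In each subunit class, genes past the rule in any comparison and the most abundant member were named with counts per library; some genes that enter the counts and medians are not reported here by name. Members and lists were chosen with earlier results of these data known. Intervals cover counting error only and leave out the spread between animals. Without molecular identifiers several reads can come from the same molecule, which would make the intervals too narrow.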

Additional observations from a re-analysis of the deposited data

How the results depend on the processing

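Subtracting the trend on transcript length and GC content changed most. For vehicle against sham it left 1 channel gene lower in place of 6, made 2 higher in place of 1, and moved the median log2 ratio to -0.040, against -0.15. For AGNHW against sham it left 1 lower in place of 3, and the median turned to 0.0066, against -0.05. For AGNHW against vehicle it gave 1 lower in place of 0. A 2-fold limit left 2 genes lower in vehicle than in sham (Scn1a and Cacng6) and 1 lower with AGNHW than in sham (Cacng6). A minimum mean of 10 CPM left 0 higher in both comparisons with sham, since Scn10a lies below it. Plain CPM, DESeq2 size factors, TMM over long genes and no minimum CPM kept each count of channel genes within 1.5 times. Plain CPM gave 8 lower in vehicle than in sham and brought Scn1a past the rule for AGNHW against sham (ratio 0.664). Of all genes past the rule between vehicle and sham, it made 23.9% higher, against 37.9% with TMM, and between AGNHW and vehicle 72.3%, against 61.1%. A prior count of 1 moved no median by over 0.1. Shares per transcript length fell outside the counting interval of the share of counts in 36 of 54 cases. No paired analysis was possible because each group had 1 library and the labels give no replicate numbers. Scn10a, Scn7a and Cacng6 rest on 11 to 73 counts a library.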
